A study of Mus musculus with 14 samples.

Results

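IgG libraries are the background controls of a CUT&Tag experiment on tumour-associated macrophages, and the 7 of them were compared here by treatment, 4 from pracinostat-treated mice against 3 from vehicle-treated mice, out of 14 libraries in all. They were chosen by antibody alone, and the other 7 libraries, made with an antibody to acetylated lysine 27 of histone H3 (H3K27ac), served as a fixed reference. All 14 came from CD11b+ cells that flow cytometry had isolated out of brain tumours of NSG mice, an immunodeficient strain, that carried orthotopic xenografts of the human glioblastoma line T387. Pracinostat, an inhibitor of histone deacetylases, was given by mouth at 30 mg/kg 4 times a week over 3 weeks, starting 7 days after implantation, and vehicle mice had the DMSO-containing solvent without drug. Another field of the labels gives the drug at 3 mg/kg, and no source used here states the ages of the mice. The labels call the libraries biological replicates without saying which animal, or how many animals, gave each, so p-values measure only the spread between these libraries.

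In CUT&Tag, an antibody bound to chromatin recruits protein A fused to the transposase Tn5, which cuts and tags the DNA around it. Normal rabbit IgG recognises no chromatin protein, so an IgG library holds the insertions that Tn5 makes without guidance. Such insertions are known to favour open chromatin, and peak callers also raise peaks in repeated sequence, where reads of many copies pile up on few positions. A background that is the same in each library would appear as places where IgG peaks recur, and the comparison asks whether there were such places and whether they differed between treatments.

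Each library was represented by its list of peak summits, the single bases at the top of its called peaks. DMSO replicates 1 to 3 had 18517, 9244 and 10191 IgG summits, a mean of 12651 ± 5102 (SD, n = 3). Pracinostat replicates 1 to 4 had 2572, 10186, 6077 and 2194, a mean of 5257 ± 3722 (SD, n = 4). Pracinostat replicates 1 and 4 were the shortest lists, and pracinostat replicate 2 was as long as the DMSO lists, so the groups overlapped. The ratio of geometric means, pracinostat over DMSO, was 0.359 (two-sided exact permutation p = 0.0857 over 35 splits, 0.514 after Benjamini-Hochberg adjustment over 8 single values), a difference that did not pass. The smallest p these 7 libraries can give is 0.0286. Read numbers per library were not stated, so depth is unknown and list length is only a rough sign of it. The scores were coarse: each IgG list held only 17 to 33 distinct values, against 28 to 185 in the H3K27ac lists, and from 16.0 to 44.1% of its summits sat at its lowest score. Typical spacing between neighbouring summits ran from a median of 91.9 kb in DMSO replicate 1 to 762 kb in pracinostat replicate 4.

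Because longer lists overlap more by length alone, shares were compared after each IgG list had been limited to its 2194 highest-scoring summits, the length of the shortest. This kept 11.8, 23.7 and 21.5% of the DMSO lists and 85.3, 21.5, 36.1 and 100% of the pracinostat lists. In pracinostat replicates 1 and 4 it therefore reached down to the lowest score of the list, which it did not in the other 5 libraries.

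**Figure D1:**
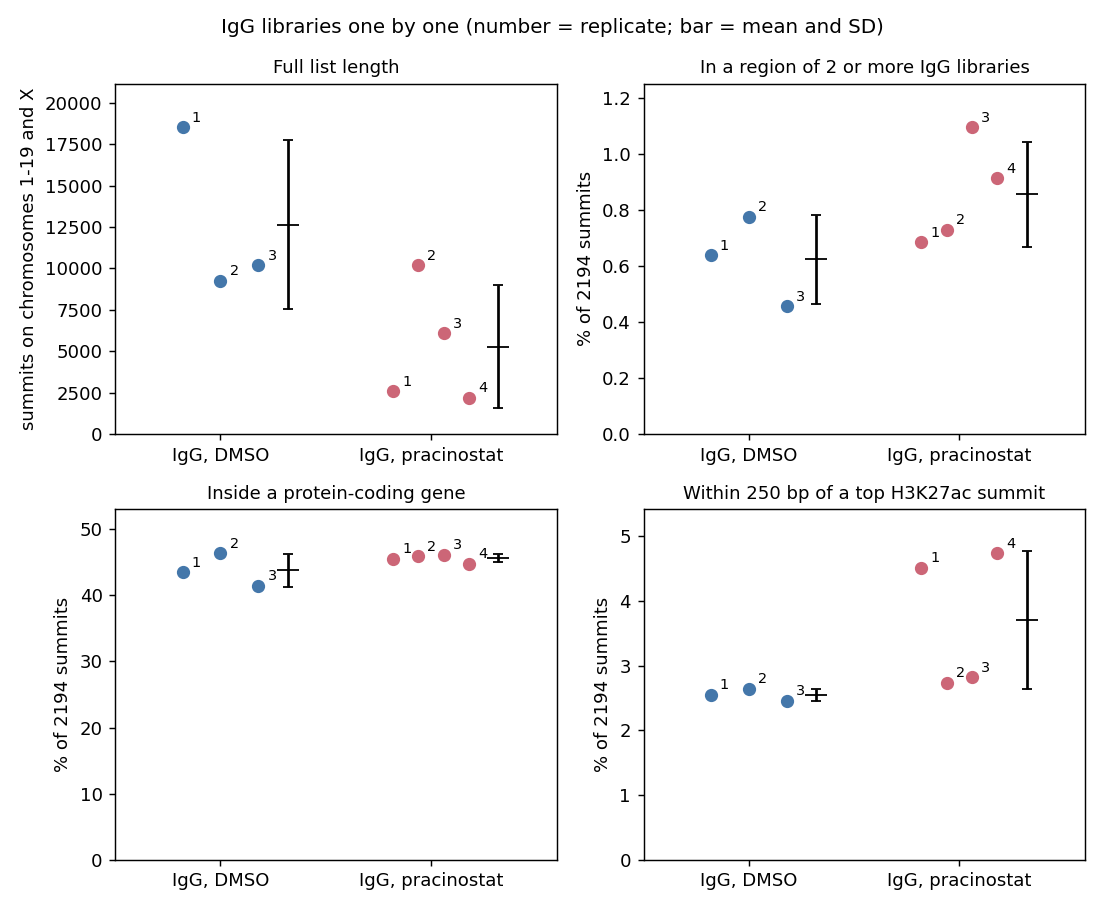
Values of the 7 IgG libraries, each point 1 library labelled with its replicate number, with the mean and SD of each group as a bar: the number of summits in the full list, and at equal length the percentage of 2194 summits in recurrent regions, inside protein-coding genes and at H3K27ac summits. Pracinostat replicates 1 and 4 have the shortest lists, 2572 and 2194 summits, and the highest shares at H3K27ac summits, 4.51 and 4.74%.

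IgG summits seldom fell in the same place in different libraries. When each summit was widened to 250 bp either way and touching windows were joined over the 7 full lists, 58068 regions formed, of which 57280 had a summit of 1 library, 771 of 2 libraries and 17 of 3 libraries. No region had summits of 4 or more libraries. A region found in 2 or more IgG libraries is called recurrent below, and 788 were, 1.36% of those formed. Of these, 264 had summits of DMSO libraries only, 81 of pracinostat libraries only and 443 of both. The full lists held 37952 DMSO and 21029 pracinostat summits, so these counts do not compare the treatments. At equal length, 6 regions (0.0392%) were of DMSO libraries only, 23 (0.15%) of pracinostat libraries only and 29 of both.

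At equal length, 58 of 15293 regions recurred, 0.379%, and none in 3 libraries. H3K27ac lists limited to the same 2194 summits formed 6834 regions, and 120 of them had summits of all 7. Nearly all of the IgG regions belonged to a single library at a list length at which 47.1% of H3K27ac regions were shared by 2 or more.

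**Figure D2:**
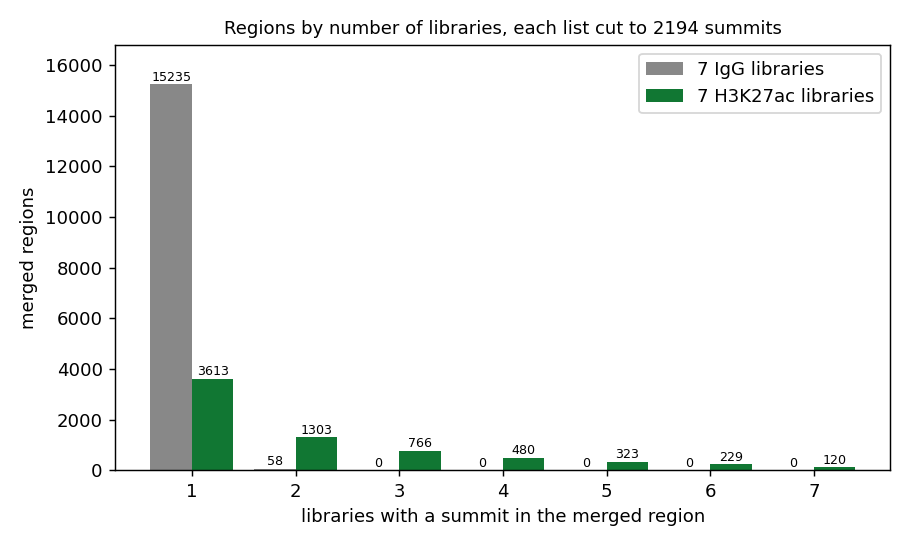
Merged regions by the number of libraries that had a summit in them (x axis), for 7 IgG and 7 H3K27ac libraries, each list limited to 2194 summits. For IgG, 15235 regions belong to 1 library and 58 to 2, and for H3K27ac 120 regions are shared by all 7.

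The few recurrent regions seen at transcription starts show what such places look like in sequence. Summits of recurrent regions fell inside the promoter windows of 10 genes in RefSeq (GRCm38.p6, which mm10 names; 250 bases before to 50 after the start), counting overlapping pairs of genes separately. The 4 printed here were chosen after their values were seen, to span the range of base composition and of H3K27ac at these promoters. Each is written 5′ to 3′ on the strand of its gene, and capitals mark the bases where an IgG library had its summit.
Wdr75: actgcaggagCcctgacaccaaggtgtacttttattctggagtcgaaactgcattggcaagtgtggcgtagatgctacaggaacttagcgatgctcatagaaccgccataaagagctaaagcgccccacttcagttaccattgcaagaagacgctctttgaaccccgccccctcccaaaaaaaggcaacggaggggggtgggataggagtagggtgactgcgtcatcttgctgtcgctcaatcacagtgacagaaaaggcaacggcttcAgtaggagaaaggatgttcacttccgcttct
Rpa3: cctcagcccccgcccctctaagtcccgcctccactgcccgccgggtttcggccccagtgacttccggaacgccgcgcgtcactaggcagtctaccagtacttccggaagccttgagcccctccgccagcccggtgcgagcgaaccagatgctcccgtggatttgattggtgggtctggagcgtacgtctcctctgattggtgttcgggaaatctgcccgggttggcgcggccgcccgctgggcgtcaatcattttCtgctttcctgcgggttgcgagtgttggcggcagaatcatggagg
Kank4: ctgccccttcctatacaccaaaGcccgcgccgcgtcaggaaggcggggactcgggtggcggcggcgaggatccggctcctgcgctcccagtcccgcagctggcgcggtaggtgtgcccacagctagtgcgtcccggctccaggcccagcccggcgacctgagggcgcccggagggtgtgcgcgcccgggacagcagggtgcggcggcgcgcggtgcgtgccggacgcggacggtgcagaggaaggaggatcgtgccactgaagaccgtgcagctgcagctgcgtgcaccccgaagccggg
Olfr994: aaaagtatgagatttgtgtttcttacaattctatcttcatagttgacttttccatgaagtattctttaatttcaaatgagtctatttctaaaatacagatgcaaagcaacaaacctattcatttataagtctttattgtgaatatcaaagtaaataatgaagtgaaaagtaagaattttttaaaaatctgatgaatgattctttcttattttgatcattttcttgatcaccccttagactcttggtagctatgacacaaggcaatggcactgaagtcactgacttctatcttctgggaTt

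The Wdr75 window (chr1:45794916-45795215, + strand), at a gene for a ribosome biogenesis factor, held summits of DMSO replicate 1 at −240 bp from the start and of DMSO replicate 3 at 19 bp after it. It is 51.3% G and C with 12 CpG dinucleotides, and 4 of 7 H3K27ac libraries had one of their 30000 highest-scoring summits in the region. At Rpa3, a subunit of the single-strand binding protein RPA (chr6:8259092-8259391, − strand, 64.3% G and C, 28 CpG), DMSO replicate 2 had a summit 5 bp after the start and DMSO replicate 1 one 485 bp after it, outside the window. This start lies beside that of Umad1 on the other strand, and 6 of 7 H3K27ac libraries had a top summit in the region. Kank4, a cytoskeletal adaptor (chr4:98817488-98817787, − strand), had the richest window, with 74.0% G and C and 38 CpG, and no H3K27ac summit in any library. Its summits came from DMSO replicate 1, at −228 bp from the start, and DMSO replicate 2, at −299 bp. The window of the odorant receptor gene Olfr994 (chr2:85430778-85431077, − strand) is 29.3% G and C with no CpG and had no H3K27ac summit either. DMSO replicate 1 had its summit there 48 bp after the start and DMSO replicate 3 one 304 bp after it. The 4 promoters thus ranged from a CpG-rich start to an AT-rich one and from marked to unmarked, and within a region the summits lay 71 to 480 bp apart.

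Over all 21044 promoter windows of protein-coding genes, 206 held an IgG summit of any library. Their median G and C content was 57.3%, against 56.7% over all windows. Of the 206, 106 also had a top H3K27ac summit in some library, with a median of 60.8% G and C and 20.5 CpG. The other 100 had none, with 52.3% and 5.5 CpG. The share of all windows with such a summit is not given here, so 106 of 206 cannot show whether IgG summits favoured acetylated promoters. Promoters with a top H3K27ac summit in 4 or more libraries, 3717 of the 21044, had a median of 62.3%. These are descriptions of the windows with no test.

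Most recurrent regions lay away from genes' ends. Of the 788, 338 (42.9%) were inside a protein-coding gene, 33 (4.19%) lay within 1 kb of either end of one and 14 were within 1 kb of a listed transcription start. Of the regions of 1 library, 42.9% were inside genes and 3.09% at gene ends. Starts were listed for 17273 of the 21627 genes, none of them on chromosome 18, so values at starts cover those genes only. In 570 of the 788 no H3K27ac library had a summit at any score, and in 756 none had one among its 30000 highest. Only 4 of the 788 had an H3K27ac summit in all 7 libraries. By the middle of the region, 2.48% of regions of 1 library, 3.24% of those of 2 and 11.8% of those of 3 (2 of 17) lay within 250 bp of a top H3K27ac summit, where such windows cover 1.70% of the genome. For H3K27ac summits of any score it was 21.2, 23.3 and 29.4% (5 of 17), beside 16.1% of the genome.

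None of the 17 regions found in 3 libraries was at a gene end or a listed start, and 10 were inside protein-coding genes. Among the highest by score within their lists was a region 124 kb from Adck1 on chr12 (88584927 to 88585604, mean within-library percentile 67.6), in DMSO replicate 2 and pracinostat replicates 3 and 4, with no gene of the table on it and no H3K27ac summit in any library.

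Sfi1 had 2 of the 17. The gene encodes a centrin-binding protein of the centrosome, and copies of its sequence elsewhere in the mouse genome make it a known place of piled-up reads. One region (chr11:3184505-3185504) had summits of DMSO replicates 2 and 3 and pracinostat replicate 2, and 6 of 7 H3K27ac libraries had a summit there as well. The other (chr11:3198908-3199899) had summits of all 3 DMSO libraries and of no pracinostat or H3K27ac library. It was the only region of the full lists present in all libraries of one treatment and none of the other, 0.00172% of the 58068. For pracinostat the share was 0%.

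The remaining named regions were spread over the genome. In Gclc, the catalytic subunit of the first enzyme of glutathione synthesis (chr9:77778168-77779211), DMSO replicate 1 and pracinostat replicates 2 and 3 had summits, and 4 H3K27ac libraries did. Nck2, an SH2 and SH3 adaptor (chr1:43564659-43565831), Auts2, a gene of brain development (chr5:131725120-131725965), and Lypd6, a membrane-anchored modulator of Wnt signalling (chr2:50188797-50190013), each had 2 DMSO libraries and 1 pracinostat library, and no H3K27ac summit. Mroh2a (chr1:88239391-88240037) had DMSO replicates 1 and 3 and pracinostat replicate 1, and no H3K27ac summit. Far from genes were a region 398 kb from Fam174a (chr1:94915529-94916446), 1 at 118 kb from the lipoprotein receptor gene Vldlr (chr19:27098096-27098629), where 3 summits lay within 33 bp, and 1 at 1236 kb from Tmeff2 (chr1:49664358-49665500). Ccnjl on chr11 (43549215 to 43550206), singled out after its values were seen, was the region with 3 pracinostat libraries and no DMSO library, and pracinostat replicate 1 had no summit in it.

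Summits of different IgG libraries lay close together somewhat more often than at a distance. Counted over all 21 pairs of IgG libraries, summits lay 1 to 50 bp apart 138 times, 2.40 times the rate per bp at distances of 100 to 500 kb. At 51 to 250 bp the rate was 1.39 times that level, at 251 to 500 bp 1.24 times and at 501 to 1000 bp 1.10 times. Within 250 bp there were 459 pairs in all, at 1.59 times the distant rate. By treatment, the ratio within 250 bp was 1.69 for pairs of DMSO libraries, 1.69 for pairs of pracinostat libraries and 1.52 for pairs across treatments. At 1 to 50 bp alone it was 2.36, 3.26 and 2.26, from 44, 20 and 74 pairs of summits. Within 250 bp and over all pairs it was 1.57 without the 100 kb bins holding 10 or more summits. Without summits at gene ends it was 1.63, and among the 41512 summits with no H3K27ac summit within 500 bp it was 2.00. Close summits share their H3K27ac surroundings, so this last filter tends to keep or drop them together. It kept 301 of the 459 pairs within 250 bp and 239876 of the 460160 at 100 to 500 kb. The 2.00 therefore cannot be compared with the unfiltered 1.59. IgG summits lay within 250 bp of top H3K27ac summits at 1.75 times the distant rate, and H3K27ac summits of different libraries lay that close to each other at 36.9 times. These ratios are descriptions, since pairs share their libraries.

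**Figure D3:**
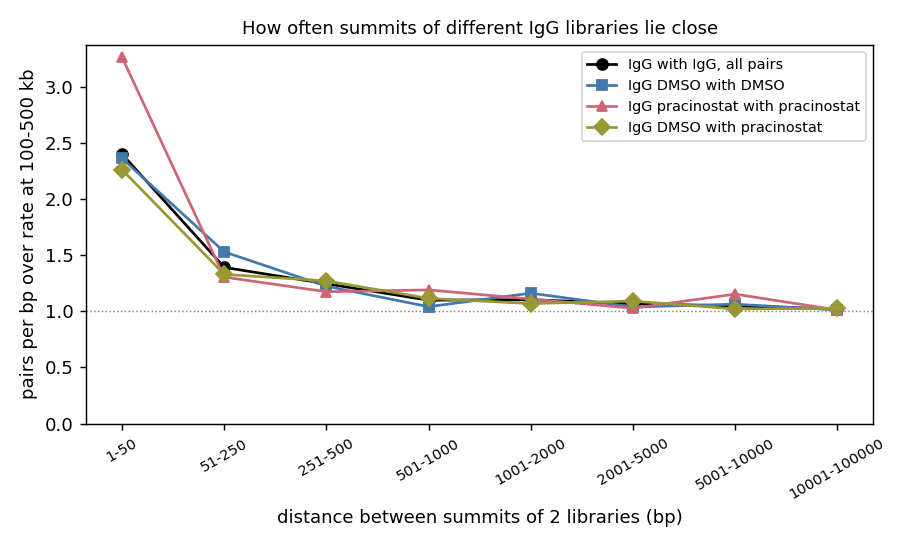
Rate of summit pairs per bp between 2 IgG libraries by their distance (x axis, bp), divided by the rate at 100 to 500 kb, for all 21 pairs of libraries and by treatment. Over all pairs the rate falls from 2.40 at 1 to 50 bp to 1.10 at 501 to 1000 bp, and the dotted line marks 1.

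IgG summits were placed along the genome almost as the sequence itself is. Inside protein-coding genes lay 42.1 ± 1.80% of full DMSO lists (SD, n = 3) and 45.0 ± 0.632% of full pracinostat lists (n = 4), where genes cover 40.0% of the 2570 Mb spanned by summits. Summits moved by 100 kb gave 41.5 and 43.7%. Within 1 kb of a gene end lay 2.98 ± 0.289 and 3.82 ± 0.938%, and these windows cover 3.03% of the genome. H3K27ac lists limited to 30000 summits had 33.2 ± 6.59% (DMSO, n = 3) and 35.4 ± 2.71% (pracinostat, n = 4) there.

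Transcription starts showed the same low level, apart from the shortest lists. DMSO replicates 1 to 3 had 1.28, 1.58 and 1.20% of their summits within 1 kb of a listed start, and pracinostat replicates 1 to 4 had 2.49, 1.55, 1.78 and 3.05%. Such windows cover 1.44% of the genome, and summits moved by 100 kb fell in them at 1.38 to 1.64%. For pracinostat replicate 4 the 67 summits at starts gave a 95% Wilson interval of 2.41 to 3.86%, and for pracinostat replicate 1 the 64 gave 1.95 to 3.16%, which cover counting error only. These are the libraries with 2194 and 2572 summits, so list length moved with this share, and its part in it was not tested.

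At equal length the shares at gene ends overlapped between treatments. DMSO libraries had 2.92, 4.01 and 2.73%, and pracinostat libraries 3.60, 2.55, 3.92 and 4.97%. The difference of 0.539 percentage points did not pass (exact permutation p = 0.543, adjusted 0.718). Inside genes lay 43.5, 46.4 and 41.5% of DMSO summits and 45.5, 45.9, 46.2 and 44.8% of pracinostat summits, a difference of 1.81 percentage points (exact permutation p = 0.257, adjusted 0.514). The pracinostat values were close together and fell within the range of the DMSO values. With full lists, where every pracinostat library lay above every DMSO library, the difference was 2.82 points (exact permutation p = 0.0286, the smallest possible, before adjustment), and without DMSO replicate 2 at equal length it was 3.11 and without DMSO replicate 3 0.649.

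Chromosomes carried IgG summits nearly in proportion to their length. The median density over the 7 libraries, relative to the mean of each list, ran from 0.905 (chromosome 11) to 1.09 (chromosome 18) over the autosomes. Chromosome X was lower in 6 of 7 libraries, at 0.812, 0.894 and 1.03 in DMSO replicates 1 to 3 and 0.703, 0.841, 0.767 and 0.769 in pracinostat replicates 1 to 4. DMSO replicate 3 was the library in which X matched the autosomes.

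**Figure D4:**
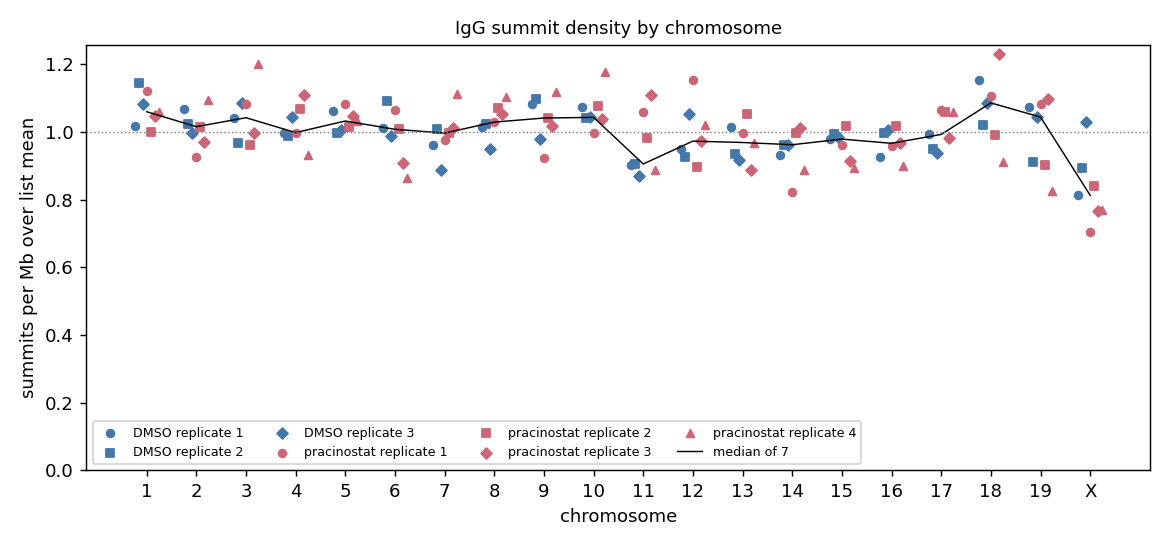
Summits per Mb on each chromosome (x axis) divided by the mean of the list, for each of the 7 full IgG lists (points) and their median (line). On X the values run from 0.703 to 1.03, and the autosomal medians from 0.905 to 1.09.

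The beginning of each assembled mouse chromosome lies beside the centromere, whose satellite repeats are a common source of background. The first 1 Mb of assembled sequence held 0.410, 0.684 and 0.775% of summits in DMSO libraries and 0.638, 0.501, 0.729 and 0.319% in pracinostat libraries at equal length, where it makes up 0.778% of the genome. The groups overlapped and the difference was −0.076 percentage points (exact permutation p = 0.629, adjusted 0.718). In these lists of equal length no library had a higher share there than the genome has.

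Other repeat-rich or multicopy places were looked up in the gene table, since no repeat annotation was used here. Sfi1 stood out, with 14 IgG summits in 71.5 kb, 8.53 times its share of the genome (0.0237% of all IgG summits, 95% Wilson interval 0.0141 to 0.0398%). They came as 4, 2 and 5 from DMSO replicates 1 to 3 and 0, 2, 1 and 0 from pracinostat replicates 1 to 4, and the 2 libraries with none were those with the shortest lists. Top H3K27ac summits were also dense there, at 6.68 times the genome share. The cluster of 5S ribosomal RNA genes on chromosome 8, counted with 50 kb either side, had 2 IgG summits in 183 kb. Rn7sk, the gene of the 7SK RNA that restrains transcription elongation, had 3 within 50 kb. For both, the 95% Wilson interval of the share held the genome share. These intervals pool the summits of the 7 libraries, so they cover counting error only and not the spread between libraries.

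Multigene families were near or below that share. Odorant receptor genes (Olfr, 1110 genes) had 60 summits, 1.23 times their share, vomeronasal receptor genes (Vmn, 355 genes) 41, or 0.502 times, zinc finger genes named Zfp 287, or 0.942 times, and predicted genes named Gm 274, or 0.622 times. Transfer RNA genes with 1 kb either side had 19, or 1.24 times. A list of 73 histone genes with the same margin, H1f10 and H3f3c among them, had 4, or 0.752 times. Top H3K27ac summits separated the same families widely, at 0.0115 times the genome share in odorant receptor genes, 9.04 times at transfer RNA genes and 12.3 times at histone genes. Reads of near-identical copies could have been placed on any copy or dropped, so these family values are uncertain.

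Local clusters of IgG summits were small. Of 25714 bins of 100 kb, with a mean of 2.29 summits over the 7 full lists, 24 had 10 or more. The fullest had 15, and these were the bin of the Ugt1a gene cluster and Mroh2a on chromosome 1 (88200000 to 88299999, 6 libraries) and the bin of Sfi1 on chromosome 11 (3100000 to 3199999, 5 libraries). The Ugt1a genes encode enzymes that conjugate bilirubin and drugs with glucuronic acid, by alternative first exons joined to shared later ones. A bin with Kcnv2 and Pum3 on chromosome 19 (27300000 to 27399999) had 13 summits. Bins with 11 held Clnk, Hspb8 with Srrm4, Lypd6, Iqsec1 with Slc41a3, Pcbd1 with Sgpl1, or, at the start of chromosome 4 (3000000 to 3099999), no gene of the table. In the Pcbd1 bin 8 of the 11 came from DMSO replicate 1 and in the bin on chromosome 4 5 of the 11 came from pracinostat replicate 2, so single libraries filled some of them. At equal length the fullest bin had 8 summits and none reached 10, so the share in such bins was 0% in each library and could not be compared.

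Gene by gene, the background reached few genes in more than 1 library. Of 21627 protein-coding genes, 1898 (8.78%) had an IgG summit within 1 kb of an end in at least 1 library, 93 (0.430%) in 2 or more, and 2 in 3. The pair were Fmo6, of the flavin monooxygenase family (DMSO replicate 2 and pracinostat replicates 1 and 4), and Zfp37, a zinc finger gene (DMSO replicates 1 and 3 and pracinostat replicate 1). Fmo6 had no H3K27ac summit in any library, and Zfp37 had none among the top summits.

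The genes that define the sorted cells mostly carried H3K27ac summits, and IgG summits at their ends came from single libraries. Over all protein-coding genes an IgG summit was present in 2 or more libraries at 0.430%, so lists of 8 to 73 genes could hardly show any. A top H3K27ac summit at an end in 4 or more libraries was found at 33.2% of all protein-coding genes. Among 8 macrophage markers, 7 had such a summit in 4 or more libraries. Of these 8 markers, 1 (Mertk, a receptor for dying cells) had an IgG summit in 1 library. Spi1 encodes the transcription factor PU.1 of the myeloid lineage, Csf1r the receptor for growth factor CSF1, and Itgam the CD11b antigen of the sort. These 3 genes had an IgG summit in no library and an H3K27ac summit of any score in all 7. Top H3K27ac summits were present in 7 libraries at Spi1 and at Csf1r and in 4 at Itgam. Of 8 microglia markers, 6 had top H3K27ac summits in 4 or more libraries, and Olfml3, P2ry12 and Tmem119 had IgG summits in 1 library each, that of P2ry12 in pracinostat replicate 2. Among 8 neutrophil markers 2 had top H3K27ac summits in 4 or more libraries and 0 had an IgG summit, and among 8 lymphocyte markers it was 1 and 1 (Cd3d). Of 20 macrophage transcription factor genes and 20 housekeeping genes, Actb and Gapdh among them, 0 had an IgG summit, and of 73 histone genes 4 did, beside the 8.78% of all genes. With 3 of 8, the microglia markers stood at 37.5% in 1 or more libraries. In 2 or more libraries it was 0 genes of each of these lists, and among the families 3 of 1110 Olfr, 0 of 355 Vmn, 3 of 397 Zfp and 3 of 1094 Gm genes (0.270, 0, 0.756 and 0.274%).

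Across all genes an IgG summit was little tied to acetylation. It was present in 1 or more libraries at 8.05% of the 11348 genes with no top H3K27ac summit in any library and at 9.62% of the 3430 genes with one in all 7. For pracinostat replicates 1 and 4 alone, these shares were 0.282 and 0.991%, and 0.423 and 0.933%. In DMSO replicates 1 to 3 they were 2.60 and 2.71, 1.43 and 1.37, and 1.41 and 1.34%. In pracinostat replicates 2 and 3 they were 1.39 and 1.37, and 0.943 and 1.28%. The share was thus higher at acetylated genes in pracinostat replicates 1, 3 and 4 and, by a small margin, in DMSO replicate 1, and not in the other 3 libraries, an order that was not tested.

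Overlap with top H3K27ac summits was low in all IgG libraries and highest in pracinostat replicates 1 and 4. The reference was the 30000 highest-scoring summits of each H3K27ac list, and windows of 250 bp around them cover 1.70% of the genome. The full H3K27ac lists held 53503 to 291042 summits. In the shortest, H3K27ac DMSO replicate 2, 65.3% of summits sat at the lowest score. Its 30000 therefore include lowest-scoring summits drawn among ties. At equal length, DMSO libraries had 2.55, 2.64 and 2.46% of IgG summits in these windows, a mean of 2.55 ± 0.091% (SD, n = 3). Pracinostat libraries had 4.51, 2.73, 2.83 and 4.74%, a mean of 3.70 ± 1.07% (n = 4). Every pracinostat value was above every DMSO value, with replicates 2 and 3 close to them, and replicates 1 and 4 stood well above the rest. The difference of 1.15 percentage points did not pass (exact permutation p = 0.171, adjusted 0.514). Without pracinostat replicate 4 it was 0.805 and without pracinostat replicate 1 it was 0.881. The windows of the full H3K27ac lists cover 16.1% of the genome. Against them the difference was 3.36 points (exact permutation p = 0.0286, the smallest possible, before adjustment). DMSO replicates 1 to 3 had 21.8, 24.5 and 21.4% there, and pracinostat replicates 1 to 4 had 25.9, 26.5, 25.3 and 25.9%. With that reference pracinostat replicates 1 and 4 did not stand above replicate 2.

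The same summits moved by 100 kb gave a level for each list. It was 1.78, 2.03 and 1.64% in DMSO and 2.28, 1.69, 2.10 and 1.75% in pracinostat libraries at equal length, so unmoved summits were at H3K27ac summits 1.30 to 2.70 times as often, most of all in pracinostat replicate 4. In the full lists, summits at the lowest score of pracinostat replicates 1 and 4 were at H3K27ac summits in 6.44% (of 1133) and 5.99% (of 701) of cases. In DMSO replicates 1 to 3 the lowest-scoring summits were there in 1.66, 1.74 and 2.46% of cases, and in pracinostat replicates 2 and 3 in 2.74 and 4.34%. Among the 4597, 2309 and 2239 highest-scoring summits of DMSO replicates 1 to 3 it was 2.15, 2.60 and 2.46%. Among the 489, 2254, 1261 and 425 highest-scoring summits of pracinostat replicates 1 to 4 it was 3.27, 2.75, 2.78 and 4.71%, so pracinostat replicate 4 was high at both ends of its list. With the 1000 highest-scoring summits of each list the treatment difference was 0.225 points (exact permutation p = 0.829). List length moved with the shares at top H3K27ac summits, and its part in them was not tested.

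**Figure D5:**
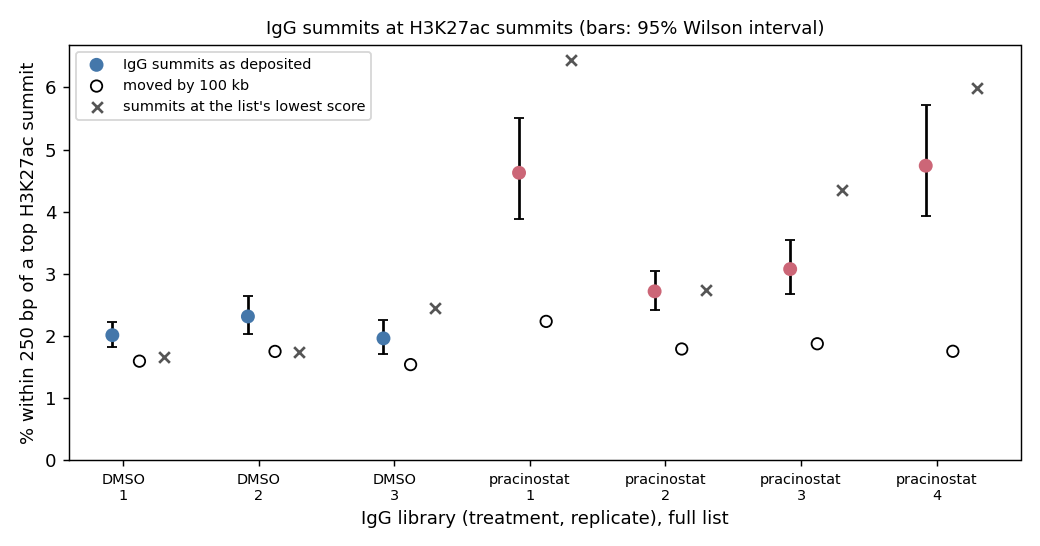
Percentage of each full IgG list within 250 bp of a top H3K27ac summit (filled points, with 95% Wilson intervals), the same after moving the summits by 100 kb (open circles), and for summits at the lowest score of the list (crosses). Pracinostat replicates 1 and 4, at 4.63 and 4.74%, lie above the other 5 lists, and their lowest-scoring summits are higher still.

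Whether an IgG library resembled the H3K27ac library of its own treatment and number was also counted. In 1 of 7 IgG libraries, pracinostat replicate 2, the H3K27ac library of the same name ranked first of 7 by overlap relative to moved summits, and in the others it ranked second to sixth. Seen from the other side, 1.95 ± 0.093% (DMSO, n = 3) and 2.08 ± 0.089% (pracinostat, n = 4) of the top H3K27ac summits lay within 250 bp of an IgG summit of any library, against 1.16 and 1.18% after moving. From 13 to 20 of the 30000 top summits of a library fell in a recurrent IgG region.

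Between treatments, the recurrent share of summits at equal length was 0.638, 0.775 and 0.456% in DMSO libraries and 0.684, 0.729, 1.09 and 0.912% in pracinostat libraries. Means were 0.623 ± 0.160 (SD, n = 3) and 0.855 ± 0.187% (n = 4), the ranges overlapped and the difference of 0.232 points did not pass (exact permutation p = 0.2, adjusted 0.514). It was 0.0912 without pracinostat replicate 3. With windows of 500 bp it was 0.608 and with the 1000 highest-scoring summits 0.300 (exact permutation p = 0.0286 for each, before adjustment), where 106 and 13 regions recurred, and with 100 bp it was 0.0152.

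Region by region, the treatments could be compared at equal length only through regions of 2 libraries. Of 15293 regions, 0 (0%) had summits in all 4 pracinostat and no DMSO libraries, and 0 (0%) in all 3 DMSO and no pracinostat libraries, counts that had to be 0 since no region had summits of 3 libraries. Summits in 2 pracinostat and no DMSO libraries were found in 23 regions (0.15%), in 2 DMSO and no pracinostat libraries in 6 (0.0392%), and in 1 of each in 29. There are 6 pairs of pracinostat libraries, 3 of DMSO and 12 across, so this was 3.83, 2.00 and 2.42 regions per pair. The overlap of 2 libraries, the share of summits with one of the other within 250 bp, averaged 0.0912% within treatments (9 pairs, 0.0456 to 0.182%) and 0.0760% between them (12 pairs, 0 to 0.182%). The difference of 0.0152 points did not pass (exact permutation p = 0.457, adjusted 0.718), and it turned to −0.00253 without pracinostat replicate 2 and to −0.0038 with a window of 100 bp. The ranking of regions by treatment, set for regions in 3 or more libraries, had 0 regions to rank at equal length. Over the 17 such regions of the full lists limma called 0 (2 at an unadjusted p under 0.05, lowest adjusted p = 0.108), and over the 58 regions in 2 libraries it called 0 (0 unadjusted). A region with a summit in 2 of 7 libraries leaves little room for a call, so these counts do not bear on whether the treatments differ.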

How the data were processed

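The authors deposited 1 list of peak summits per library, with a score per summit on a −log10 scale, and whether of p or q is not stated. The submitters' processing notes name mm10, HOMER, DESeq2, MACS2 2.2.9.1 and Bowtie2. Whether IgG entered the calling, and at what threshold, is not given in the sources used here. Scores grow with depth, so they served only to rank summits within a list. Summits on chromosomes 1 to 19 and X were used (0 lay elsewhere). Lists were limited to 2194 summits with ties drawn at a fixed seed, widened by 250 bp and merged. Genes came from a RefSeq table (GRCm38.p6) of 21627 protein-coding genes without strand, and transcription starts from its promoter table. Single values were compared by exact permutation over 35 splits, and regions with limma 3.58.1 in R 4.3.3 on within-library ranks. Benjamini-Hochberg adjustment was used for both. On simulated data limma recovered the changed regions, with more false calls than its nominal rate. The simulated regions had a value in each library, unlike the regions here, which most libraries lacked. The simulation therefore does not measure recovery in these data. Other steps used Python 3.11.15 with scipy 1.17.1.

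The comparison, regions and gene lists were chosen with earlier results of these data known. By rule the text names the 12 regions in most libraries, regions of all libraries of 1 treatment, genes in 3 or more libraries, the 10 fullest bins, and Spi1, Csf1r, P2ry12, Itgam, Actb and Gapdh; 1 region and 1 bin are not reported here. Alternatives were each library left out, full lists or the top 1000, other windows, the replicate block and other tie draws.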

Additional observations from a re-analysis of the deposited data

How the results depend on the processing

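Of 133 alternatives, 127 were counted as keeping the direction and the side of the threshold, taken before adjustment. This count includes values of 0, which have no direction, and so overstates agreement. Among them are most values for summit-dense bins, whose main value was 0, and the rankings of regions without a call. In 4 a difference reached p = 0.0286, the smallest exact permutation p of this design: summits inside genes with full lists (2.82 percentage points), summits in recurrent regions with the 1000 highest-scoring summits (0.300) and with 500 bp windows (0.608), and summits at H3K27ac summits with full H3K27ac lists (3.36). In 2 the overlap within minus between treatments reversed, to −0.00253 without pracinostat replicate 2 and to −0.0038 with 100 bp windows. Leaving out each library in turn gave a ratio of summits per library of 0.27 to 0.45, and differences of 0.0912 to 0.251 points for recurrent regions, 0.137 to 0.942 for gene ends, 0.649 to 3.11 for genes, 0.805 to 1.47 for H3K27ac summits, −0.182 to 0 for the first Mb and −0.00253 to 0.035 for the overlap. The cause of these shifts was not tested.

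With the replicate number as a block, over numbers 1 to 3, no call changed: the summit ratio was 0.45 and the difference at H3K27ac summits 0.805 points (exact sign-flip p = 0.5 and 0.25, the latter the smallest 3 pairs can give), and limma with the block over 58 regions called 0. The labels give no shared animal or day for a number. Deviations from the group means over 2565 bins of 1 Mb correlated at −0.0157, 0.014 and −0.0189 for numbers 1 to 3. Pairs of different numbers ran from −0.0365 to 0.0429. Full IgG lists held only 0.854 to 7.20 summits per Mb, so counts per bin were small. These correlations therefore cannot show whether libraries of the same number shared an animal or day. The ranking of regions could not be fitted in 11 alternatives, and gave 0 calls in the other 3. The 4 further tie draws changed no call. These draws, the block for single values and for the 58 regions, bins taken from full lists, and transcription starts in place of gene ends were chosen after seeing the data. Depth is unknown, and 7 libraries limit each test to a p of 0.0286.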
